A study of Mus musculus with 2 samples.

Results

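The cells described here are 202 stromal cells of an obstructed mouse kidney, as labelled, that carry the most transcripts of Igfbp3, Il11ra1, Adamts5, Serpina1d and Fbln5. They were chosen from 1291 barcodes of the library labelled UUO, out of 12103 barcodes in the 2 libraries of the series. A barcode was kept with 1500 or more unique molecular identifiers (UMIs, the tags that count single captured RNA molecules) and at most 10% of them from mitochondrial genes. It also had to carry at least 3 of 6 stromal transcripts (Col1a1, Col1a2, Col3a1, Dcn, Pdgfra, Pdgfrb) and at most 1 of 5 transcripts of other cells (Pecam1, Ptprc, Epcam, Tyrobp, Umod). These steps left 675 kept cells. Each was scored by the mean of ln(1 + UMIs per 10000) over the 5 named genes, and the top 30% became the members, beside 473 other kept cells.

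The series holds 1 library per group, both from the kidneys of FVBN mice and from cells sorted as positive for the PDGF receptors alpha and beta, with no further treatment or genotype named in the labels. UUO is the usual short form of unilateral ureteral obstruction, surgery that blocks 1 ureter and leads to fibrosis of that kidney, and the tissue was taken 10 days later. The other library is labelled sham. The labels do not say how many animals entered either library, so cells cannot be assigned to animals, and no test was made between cells or libraries. Of the members, 57 carried UMIs of Xist and none of the Y-linked genes searched, and 50 carried Y-linked UMIs without Xist, so cells of both sexes appear in the library labelled UUO. Transcripts of fibrosis did not all follow the labels: among the other kept cells, Col1a1 stood at 1587 CPM (UMIs of the gene scaled by all UMIs of the group, as 1 in 10000 is 100 CPM) in the library labelled UUO and 2324 in the library labelled sham, and Acta2 at 568 against 1434. Others stood higher in the other kept cells of the library labelled UUO than in those labelled sham. Postn was at 156 against 68.5 CPM, Ccn2 at 374 against 177 and Dcn at 14544 against 2814. Both groups are therefore called by their labels.

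Fibroblasts make and remodel the matrix around tubules and vessels. Igfbp3 encodes the main carrier of insulin-like growth factors in blood, and Fbln5 encodes fibulin-5, which helps to assemble elastic fibres. Adamts5 encodes a protease that cleaves aggrecan and versican, Il11ra1 the receptor for interleukin-11, and Serpina1d a mouse paralogue of alpha-1-antitrypsin, an inhibitor of serine proteases.

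Serpina1d is 1 of 5 closely similar genes on chromosome 12, and their sequences are shown because they set how far this score gene can be trusted. The 5 stretches below are 60 bases of the last coding exon, over the reactive loop that proteases attack, 5′ to 3′ on the minus strand of mm10, from the GENCODE M21 transcripts. Capitals mark the positions at which the 5 genes are not all alike.
Serpina1d: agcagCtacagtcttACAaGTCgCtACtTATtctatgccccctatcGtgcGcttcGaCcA
Serpina1b: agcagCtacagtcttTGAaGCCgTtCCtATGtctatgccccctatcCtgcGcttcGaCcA
Serpina1a: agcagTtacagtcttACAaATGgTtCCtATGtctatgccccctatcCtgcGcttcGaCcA
Serpina1c: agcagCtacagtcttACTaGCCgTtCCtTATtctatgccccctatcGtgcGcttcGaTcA
Serpina1e: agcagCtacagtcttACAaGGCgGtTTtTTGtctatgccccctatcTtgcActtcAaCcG
The stretches lie at chr12:103763762-103763821 for Serpina1d and chr12:103728324-103728383 for Serpina1b. Serpina1d and Serpina1b differed at 9 of these 60 bases and at 10 of the 189 bases of the exon, and over their 1239 coding bases they were 96.5% identical. The window was chosen as the one with the most differing positions, so the rest of the exon separates the genes less. Of the 31-base words in the last 400 bases of the longest Serpina1d transcript, where 3′ reads fall, 68.9% also occurred in transcripts of other genes, first of all Serpina1b. In the annotation the Serpina1b gene also spans the whole of Serpina1d. The deposited values share such UMIs among genes, so the Serpina1d and Serpina1b levels are uncertain against each other.

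The members formed the upper end of a broad distribution of scores in the library labelled UUO. Their scores ran from 1.96 to 3.81 with a median of 2.72, against 0 to 1.96 with a median of 1.31 in the other kept cells. These values are the rule itself and no finding. The 3 members just inside the cut scored 1.961, 1.976 and 1.976, and the 3 cells just outside scored 1.961, 1.960 and 1.957, so the border ran through cells of like score. The members were not spread evenly above it: 34 scored between 2.4 and 2.6, 14 between 2.6 and 2.8, and 36 between 3.0 and 3.2. All 5 score genes were detected in 109 members and in 13 other kept cells, 4 of them in 79 members and 3 in 14. Applied to the library labelled sham, the same rule kept 8514 cells and took 2554, whose scores had a median of 0.906.

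**Figure D1:**
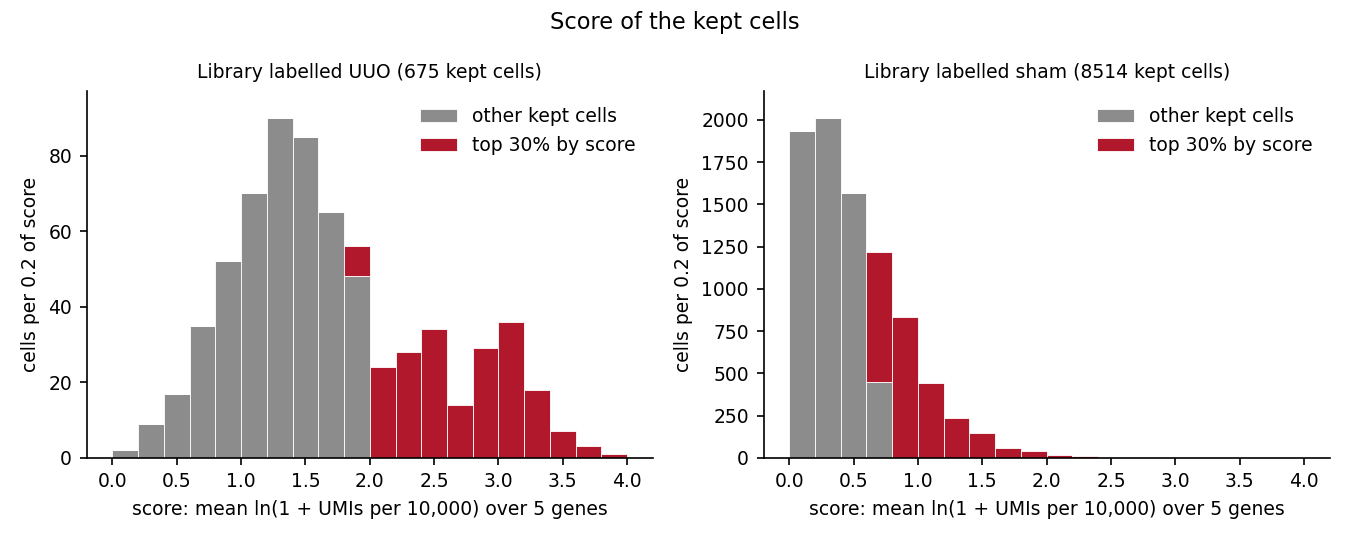
Stacked counts of kept cells per 0.2 of score (vertical axis) by score (horizontal axis, mean natural log of 1 + UMIs per 10000 over 5 genes) in the libraries labelled UUO and sham; red marks the top 30% of each library. The 202 members of the library labelled UUO reach 3.81, and the top 30% of the library labelled sham reach 2.76.

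Igfbp3 (chr11:7206086-7213923 of mm10) was the score gene with the highest level in the members. Its summed level was 6994.5 CPM in the members and 1149 in the other kept cells of the library labelled UUO, and 708 and 67.3 in the top 30% and other kept cells of the library labelled sham. Fbln5 (chr12:101746565-101819055) stood at 4965.5 and 706 CPM, and at 1334 and 231 in the library labelled sham. Il11ra1 (chr4:41699989-41769474) stood at 1647 and 785 CPM, and at 102 and 31.5. The order was the same for Adamts5 (chr16:85856173-85901828), at 847 and 232 CPM and then 134 and 27.2. For Serpina1d the 4 levels were 462, 74.6, 27.9 and 3.43 CPM. Within the library labelled UUO a member carried a median of 67.5 Igfbp3 UMIs per 10000, and 80% of members lay between 15.3 and 136, while other kept cells had a median of 5.63. Il11ra1 shares 52.7% of the words of its transcript end with other genes, and its near copy Gm13305 took 1894 UMIs in the members beside the 1842 of Il11ra1.

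The score genes also had UMIs in cells of other types in the library labelled UUO. In 83 cells that were not kept and carried 4 or more of 6 proximal tubule markers (median 6140 UMIs), Igfbp3 stood at 1157 CPM, Fbln5 at 793, Il11ra1 at 328, Adamts5 at 153 and Serpina1d at 305. Summed Igfbp3 and Fbln5 of the other kept cells were below these, but by the median cell the other kept cells were above, at 5.63 against 3.71 UMIs per 10000 for Igfbp3 and 4.77 against 3.30 for Fbln5. In 54 cells with 4 or more endothelial markers, Igfbp3 stood at 2069 CPM and Fbln5 at 1124, and in 207 such cells of the library labelled sham Igfbp3 stood at 1264.5, above the 708 of its top 30%. Igfbp3 also stood at 1969.6 and 2259.9 CPM in cells of clusters 3 and 4 of the clustering described at the end, which held 0 and 1 members. How much of these levels is free RNA was not tested. Serpina1d was uneven among the tubule cells, with a median of 0 and a highest value of 216 UMIs per 10000 in 1 cell. Thinned to 1500 UMIs per cell, Igfbp3 was detected in 97.5% of members (95% exact binomial interval 94.3 to 99.2), 62.6% of other kept cells (58.0 to 67.0) and 49.4% of the tubule cells (38.2 to 60.6). Serpina1d was detected in 37.8% (31.1 to 44.9), 6.55% (4.50 to 9.17) and 8.43% (3.46 to 16.6). Thinning left out 1 member. Without thinning, the shares with an Igfbp3 UMI were 100%, 90.5% and 81.9%, at median depths of 4564, 6593 and 6140 UMIs. Intervals here and below cover counting error only.

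To describe how the 5 genes vary together, the top 30% was chosen again with each gene left out of the score. Every left-out gene was 1.5-fold or more higher in the cells of the library labelled UUO chosen by the other 4. Fbln5 was 5.35-fold higher (95% counting interval 5.11 to 5.6), at 4422 against 827 CPM. Serpina1d was 5.19-fold higher (4.47 to 6.02) and Igfbp3 4.40-fold (4.24 to 4.56). Adamts5 was 3.05-fold (2.77 to 3.35) and Il11ra1 1.71-fold higher (1.61 to 1.82). At 1500 UMIs per cell the ratios were 3.89, 3.29, 3.8, 2.80 and 1.5 in that order, and with the added 5 CPM Il11ra1 then missed the 1.5-fold line. In the library labelled sham the left-out ratio of Igfbp3 was 1.11 (1.07 to 1.14), at 262 against 237 CPM, and those of Fbln5, Serpina1d, Adamts5 and Il11ra1 were 2.41, 2.89, 2.59 and 1.86. Across the 675 kept cells the rank correlation of Igfbp3 and Fbln5 was 0.51, and across the 8514 kept cells labelled sham it was 0.13, where counts of both genes were lower. Cells of a library share its background RNA and differ in depth. The members were also chosen with earlier results of these data known. The left-out ratios and correlations in the library labelled UUO are therefore descriptions and no independent support for the set.

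**Figure D2:**
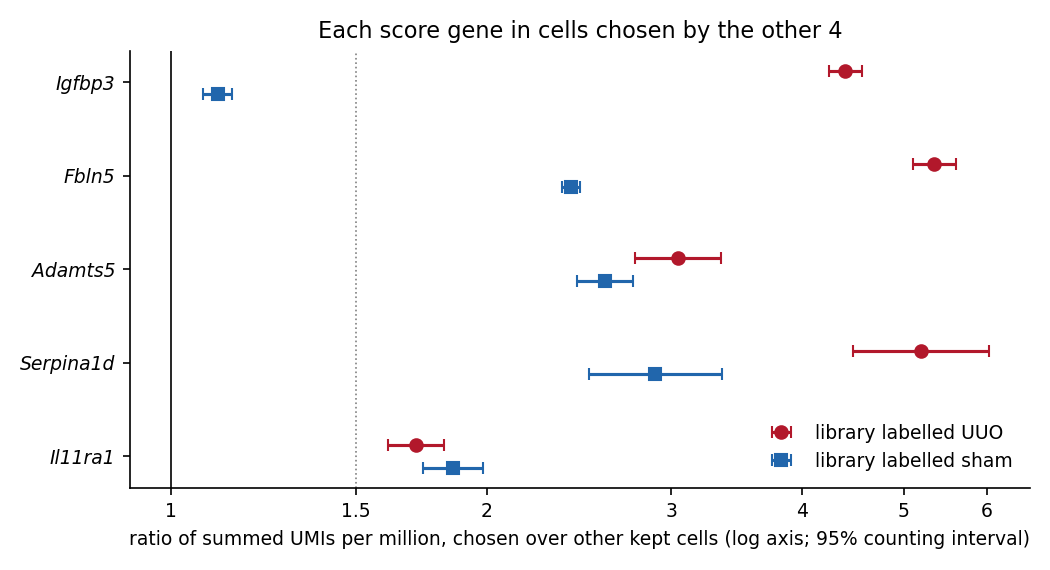
Ratio of summed CPM (horizontal log axis, bars are 95% counting intervals) of each score gene in the top 30% of cells chosen by the other 4 genes over the other kept cells, in the library labelled UUO (red circles) and the library labelled sham (blue squares). Igfbp3 sits at 4.40 in the library labelled UUO and at 1.11 in the library labelled sham.

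The members were shallower than the other kept cells, and their label as fibroblasts held up in part. Members had a median of 4564 UMIs (1514 to 15630) and 2211 genes, and the other kept cells 6593 UMIs (1564 to 35963) and 2640 genes. Ordered by depth into 5 groups of 135 kept cells, members made up 35.6% and 43.7% of the shallowest groups and 14.1% of the deepest. All 10 fibroblast markers were detected in them, at a summed 10783 CPM, but this was below the 22138 CPM of the other kept cells, and 7 of the 10 were 1.5-fold or more lower. The mitochondrial share was close in both, with medians of 2.08% and 1.80%. Markers of other cells were present in both groups: the 6 proximal tubule markers summed to 1103 CPM in members (per cell median 879) and 1963 in other kept cells (median 817). The 9 mural markers summed to 1198 and 1419 CPM, above Col1a1 in the members. The 8 endothelial markers summed to 432 and 796 CPM, and the 8 macrophage or dendritic markers to 129 and 80.1, with Adgre1 at 0 in both. Of the 6 T or NK markers, Cd3e, Cd3d, Nkg7 and Ptprc were at 0 in the members. Globin and Alas2 UMIs summed to 358 and 4751 CPM, although the medians per cell, 297 and 335, were close, and 1 other kept cell had 1% or more globin. Without that cell 704 genes were called higher and 659 lower in the comparison below, and without the clusters led by markers of other cells 787 and 609.

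Among genes with 20 CPM or more over all kept cells, 722 of 6305 were 1.5-fold or more higher in the members, a background of 11.5%, and 656 were 1.5-fold or more lower, a background of 10.4%. These counts rest on log2 ratios of CPM + 5, an offset that pulls weakly expressed genes toward 0, and leave out the score genes. The median log2 ratio over all genes was 0.08. Scaling by that median changed the split to 559 higher and 767 lower. Where a fold is given, it is the plain ratio of both CPM values. In the library labelled sham the same comparison called 112 of 5828 genes higher, 1.92%, and 71 lower, 1.22%. Held to the 4 clusters in which 30% or more of the cells were members, called the member-rich clusters here and described at the end, 80 of 179 called genes that are listed or named lost their call. The values there are given beside the genes concerned. Over all 6400 genes tested there, 12.6% were higher and 5.31% lower, the background for list counts in those clusters.

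The 15 genes furthest above the other kept cells held a chloride channel regulator, an ecto-nucleotidase, the cellular iron exporter and several genes of cell shape and guidance. Clca3a1 (chr3:144729677-144760977), of the calcium-activated chloride channel regulator family, was at 234 CPM in the members and 15.8 in the other kept cells, 14.8-fold higher (11.1 to 20.5). It was detected in 48.0% of members and 8.67% of other kept cells. Nt5e (chr9:88327197-88372092), which encodes the ecto-5′-nucleotidase CD73 that makes adenosine, was at 88.5 and 6.95 CPM, 12.7-fold higher (8.09 to 20.8). In healthy kidney, CD73 is a known mark of cortical peritubular fibroblasts. Slc40a1 (chr1:45908068-45926523), which encodes the iron exporter ferroportin, was at 214 and 25.2 CPM, 8.48-fold higher (6.61 to 11). Ccl6, a chemokine gene, was at 119 and 10.7 CPM, 11.1-fold higher (7.66 to 16.4).

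Adap2 (chr11:80154105-80178958), which encodes an Arf GTPase-activating protein, and its antisense neighbour Adap2os stood together. Adap2os was at 371 and 44.9 CPM and Adap2 at 233 and 32.7, but the counting is not stated to use strand, so reads of the pair cannot be told apart. The same holds for Gm14964, at 268 and 42.9 CPM, which lies antisense to Nrxn2, and for A730049H05Rik, at 69.7 and 10.1 CPM, which lies antisense to Adamts9. Cdc42ep3, an effector of the GTPase Cdc42, was the best detected of the 15 after Serpina1b, at 449.8 and 75.3 CPM and in 72.3% of members. Shroom3, an actin-binding regulator of cell shape, was at 117 and 13.6 CPM, Robo2, a receptor for Slit guidance cues, at 106 and 13.6, and Lrrn1 at 63.5 and 6.37. Ak5, an adenylate kinase gene, was at 119.8 and 15.4 CPM, and Adra1b, which encodes the alpha-1B adrenoceptor, at 106 and 15.6. Serpina1b was at 755 and 149.6 CPM, 5.05-fold higher (4.52 to 5.64), with the uncertainty shown by the sequences above. Its paralogues Serpina1a and Serpina1c stood at 14.3 and 6.89 CPM in the members, near the 18.8 and 7.08 of the other kept cells.

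All 15 genes were also above the other kept cells in the library labelled sham, whose values played no part in choosing them. In 13 of the 15 the difference there was 1.5-fold or more, counted on the log2 scale with 5 CPM added, and 11 of the 15 passed the filter. Ccl6, Nt5e, Lrrn1 and A730049H05Rik did not pass, and all but Ccl6 are among the 13. Nt5e, at 7.21 against 1.93 CPM, and Lrrn1, at 4.15 against 0.487, were near the floor there. These are not 15 independent genes. Serpina1b shares 61.6% of the words of its transcript end with other genes, first of all Serpina1d, whose score helped to choose the top 30% labelled sham. Adap2 and Adap2os cannot be told apart. Clca3a1 stood at 156 CPM in the top 30% labelled sham against 25, Slc40a1 at 123 against 55.2, and Adap2os at 71.2 against 26.3. The exceptions were Ccl6, at 7.60 against 5.94 CPM, and Ak5, at 61.2 against 57.7. In the same comparison the 8 endothelial markers summed to 533 CPM in the top 30% labelled sham and 386 in the others, with Plvap at 205.8 against 102 and Egfl7 at 73.9 against 35.8, the opposite direction to the library labelled UUO, and their part in the agreement was not tested. More widely, 558 of the 722 genes called higher passed the filter in the library labelled sham. Of these, 67 were called higher there and 0 lower, and 89.8% lay above 0, against 59.1% of all genes tested there.

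**Figure D3:**
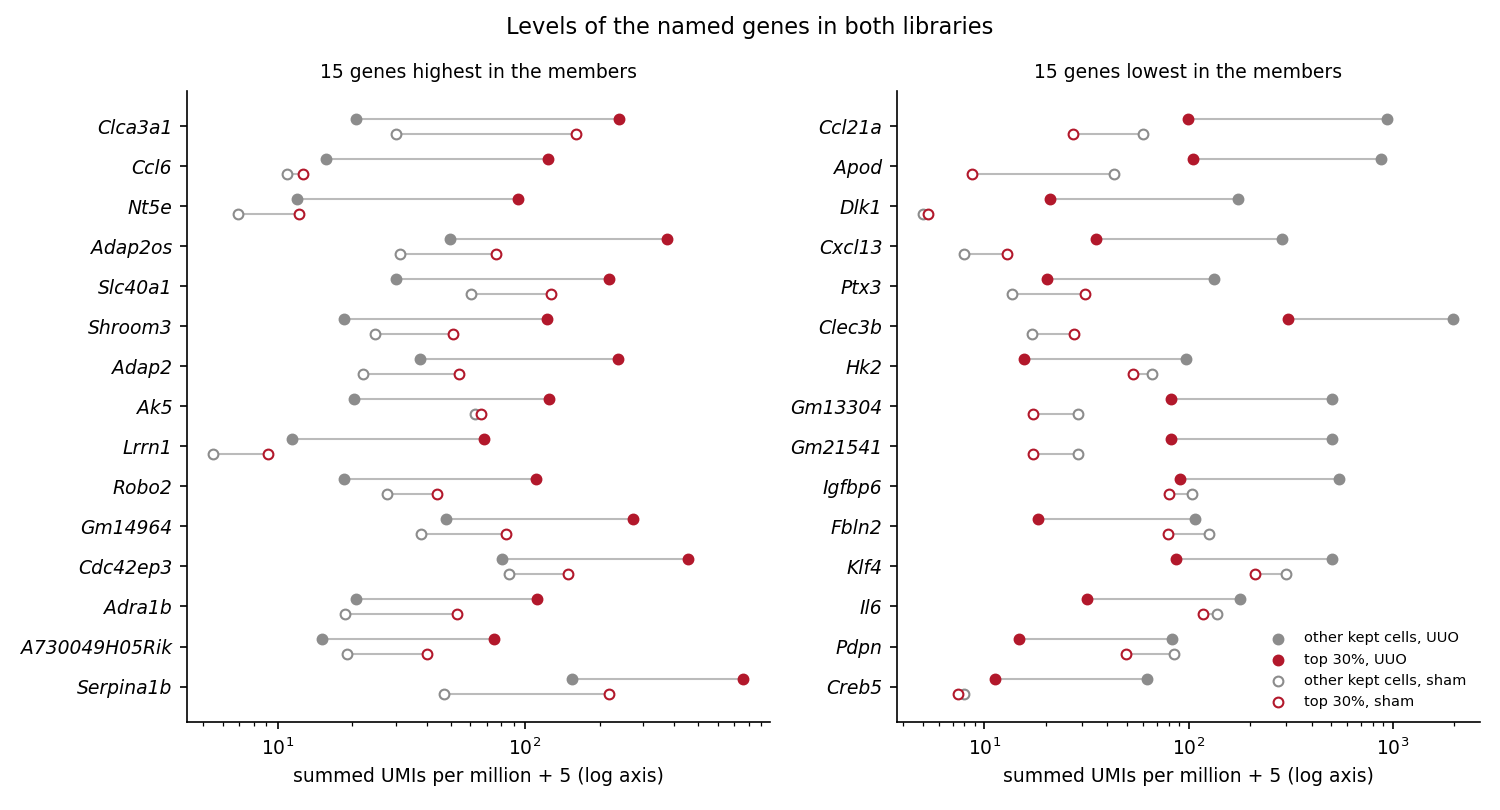
Summed CPM plus 5 (horizontal log axis) of the 15 genes highest (left) and 15 lowest (right) in the members; red points are the top 30% by score and grey points the other kept cells, filled for the library labelled UUO and open for the library labelled sham. Clca3a1 is separated in both libraries, while Clec3b is at 300.4 against 1972 CPM in the library labelled UUO and at 22.4 against 12.2 in the library labelled sham.

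The 15 genes furthest below the other kept cells held markers of adventitial fibroblasts, chemokines and cytokines, and genes of acute activation. Clec3b (chr9:123150946-123157432), which encodes the plasminogen-binding protein tetranectin, was at 300.4 CPM in members and 1972 in other kept cells, 6.56-fold lower (5.88 to 7.35). Igfbp6, which encodes a carrier with preference for IGF-II, was at 85.8 and 537 CPM, 6.26-fold lower (5.10 to 7.77). Apod, which encodes the lipid carrier apolipoprotein D, was at 100.2 and 867 CPM, and 48.4% of its UMIs in the other kept cells came from 5 cells. Fbln2, a fibulin gene of the same family as Fbln5, was at 13.4 and 103 CPM, 7.69-fold lower (4.60 to 13.9). Klf4, a transcription factor gene, was at 82.3 and 500.4 CPM and was detected in 24.3% of members and 64.9% of other kept cells. Hk2, which encodes hexokinase 2, was at 10.7 and 92.1 CPM, Pdpn, which encodes podoplanin, at 9.84 and 77.6, and Creb5, a transcription factor gene, at 6.26 and 57.4.

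Several low genes rested on few cells. Ccl21a, a chemokine of lymphatic vessels, was at 94.5 and 929.7 CPM, but 91.8% of its UMIs in the other kept cells came from 5 cells, and it was detected in 38.6% of members and 45.7% of other kept cells. Gm13304 and Gm21541 are near-identical copies of Ccl21a, and all words of their transcript ends occur in other genes. Ptx3, which encodes pentraxin 3, was at 15.2 and 128 CPM with 65.2% of the higher sum in 5 cells. Cxcl13, a B cell chemokine gene, was at 30.4 and 282 CPM with 53.2% in 5 cells, Il6 at 26.8 and 174 CPM with 43.9%, and Dlk1, a Notch-like inhibitor of fat cell differentiation, at 16.1 and 169 CPM with 38.9%. In the member-rich clusters the log2 ratios of Ccl21a, Cxcl13, Il6 and Dlk1 were 0.26, -0.34, -0.57 and -0.37, all short of the call.

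The low genes were less alike in the library labelled sham. Of the 15, 11 were below the other kept cells there and 6 by 1.5-fold or more, among them Apod at 3.70 against 38.0 CPM. The 6 included Ccl21a and its near copies Gm13304 and Gm21541, at log2 ratios of -1.14, -0.73 and -0.73. These copies cannot be counted as separate genes, so the agreement rests on fewer signals than the counts say. Clec3b, Cxcl13 and Ptx3 went 1.5-fold or more the other way, at 22.4 against 12.2, 7.90 against 2.96 and 26.1 against 8.71 CPM, and none of the 3 passed the filter there. Of the 656 genes called lower, 402 passed the filter in the library labelled sham, where 31 were lower and 14 higher and 28.6% lay above 0.

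Elastic fibre and other matrix genes were mostly below the other kept cells, although a gene of elastic fibres had helped to choose the members. Of the 21 elastic fibre genes, 18 besides Fbln5 passed the filter, and 2 were higher and 10 lower, with a median log2 ratio of -0.77. The higher genes were Emilin1, whose product sits between elastin and microfibrils, at 583 and 201.8 CPM, and Loxl1, a lysyl oxidase that cross-links elastin, at 492 and 254. Emilin2 was at 8.94 and 61.7 CPM, and Eln, which encodes elastin, at 85.8 and 187, but at 174 against 108 in the library labelled sham. Within the member-rich clusters the log2 ratios of Emilin1, Loxl1 and Emilin2 were 0.54, 0.37 and -0.21, and 0 of 15 elastic fibre genes were higher. Of the fibrillar collagen genes 5 of 11 passed, and 0 were higher and 4 lower. Col1a1 was at 737 and 1587 CPM, 2.15-fold lower (2.00 to 2.32), Col3a1 at 986 and 1906, Col1a2 at 861 and 1446 (under the call in 4 of 24 alternatives), and Col5a1, within 1.5-fold, at 58.1 and 66.6. Neither Col1a1 nor Col3a1 differed by 1.5-fold in the library labelled sham, at 2228 against 2324 and 3112 against 3656 CPM.

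Proteoglycans followed in part. Of 18 genes 12 passed, with 2 higher, 5 lower and a median log2 ratio of -0.32. Dcn, which encodes decorin and binds collagen fibrils, was at 6089.5 and 14544 CPM, 2.39-fold lower (2.33 to 2.45). Prelp and Bgn, small leucine-rich proteoglycan genes, were at 481 and 269 and at 2904 and 1913 CPM, and Bgn at 1.52-fold (1.45 to 1.58) sat at the line of the call, under it in 11 of 24 alternatives. The log2 ratio of Prelp was 0.20 in the member-rich clusters. Vcan, which encodes versican, a substrate of the Adamts5 protease, was at 3.58 and 35.1 CPM, and the hyaluronan synthase gene Has1 at 26.8 and 163.

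Basement membrane genes went the other way. Of 22 genes 14 passed, and 7 were higher and 2 lower, with a median log2 ratio of 0.55. Col18a1, a collagen of vessel and epithelial basement membranes, was at 342 and 114 CPM, 2.99-fold higher (2.59 to 3.45). Lamc3, a laminin chain gene, was at 53.7 and 18.0 CPM, and Col4a1 and Col4a2, which encode the collagen IV network, at 552 and 260.2 and at 359 and 151. Lama4 and Lamb2 were lower, at 8.94 and 35.6 and at 51.0 and 83.7 CPM. In the library labelled sham 2 of 13 were higher and 0 lower. In the member-rich clusters 1 of 13 was higher and 0 lower, and the log2 ratios of Col18a1, Lamc3, Col4a1, Col4a2 and Lamb2, at 0.45, 0.45, 0.47, 0.49 and -0.43, lost their calls.

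Among proteases, 4 of 17 genes that passed, of a list of 28, were higher and 6 lower, without Adamts5. Adamtsl2, an ADAMTS-like matrix protein gene, was at 165 and 53.3 CPM, Adamts9 at 48.3 and 13.9, and the inhibitor gene Timp3 at 1185 and 666. Adamts4, which encodes the other main aggrecanase, was lower at 16.1 and 99.4 CPM, 6.17-fold (3.85 to 10.5), and Htra3 at 56.3 and 229.8. In the list of serpins 9 of 25 passed, with 2 higher and 4 lower. Serpinb9, an inhibitor of granzyme B, was at 45.6 and 25.8 CPM, and Serpinf1, which encodes the angiogenesis inhibitor PEDF, at 299 and 1161. Within the member-rich clusters the log2 ratios of Adamtsl2, Timp3 and Serpinb9 were 0.29, 0.18 and 0.38, under the call.

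Around Igfbp3, more genes of the insulin-like growth factor axis were lower than higher. Of 20 genes 11 besides Igfbp3 passed, with 1 higher and 6 lower and a median log2 ratio of -0.63. Igfbp7, a related low-affinity carrier, was higher at 16010 and 8206 CPM, 1.95-fold (1.91 to 1.99). Igf1, the ligand, was at 115 and 390.3 CPM, 3.38-fold lower (2.82 to 4.09), and the receptor gene Igf1r at 44.7 and 34.5. Tmem219, which encodes a cell death receptor for IGFBP-3, was at 83.2 and 63.7 CPM, within 1.5-fold. In the member-rich clusters 1 of 8 was higher and 2 lower with a median of -0.03, and the log2 ratio of Igfbp7 went from 0.96 to 0.12. Among cells labelled sham Igf1 stood at 98.1 against 72.1 CPM and 1 of 8 genes was lower.

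Genes of the interleukin-11 and interleukin-6 receptors were close to or above the other kept cells, and an inflammatory ligand and target were below. In this list 9 of 21 genes besides Il11ra1 passed, with 2 higher and 2 lower. Il6st, which encodes gp130, the signalling chain shared by both receptors, was at 184 and 118 CPM, 1.57-fold higher (1.32 to 1.86), under the call in 9 of 24 alternatives. Osmr, a receptor chain for oncostatin M, was at 119.8 and 56.2 CPM. Socs3, a feedback inhibitor induced by this pathway, was at 239 and 1021 CPM, 4.28-fold lower (3.78 to 4.86), and Il6 was among the 15 lowest genes. Among cells labelled sham Socs3 was at 991 against 998 CPM.

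Adventitial fibroblast genes were the list with the lowest median. Of 20 genes 19 passed, and 1 was higher and 16 lower, with a median log2 ratio of -1.86. Pi16 and Sfrp4, a marker of adventitial progenitors and a secreted WNT inhibitor, were at 330.1 and 1221 and at 354 and 1299 CPM, 3.70-fold (3.33 to 4.13) and 3.67-fold (3.31 to 4.07) lower. Col14a1, a collagen that binds fibril surfaces, was the higher gene at 774 and 271 CPM, 2.86-fold (2.61 to 3.14), and Cd248 was at 92.1 and 73.9. In the library labelled sham 3 of 13 were higher and 1 lower, with a median of -0.01. There Sfrp4 was at 55.9 against 32.9 CPM and Pi16 at 55.7 against 108. In the member-rich clusters the log2 ratio of Pi16 went from -1.87 to -0.47, and in cells with Xist UMIs only that of Sfrp4 went from -1.86 to -0.49. Of the members 13, or 6.44%, were also among the top 30% of kept cells by Clec3b and Sfrp4, and 16.8% among those by Car3 and Rbp4. By Clca3a1 and Agtr1a it was 136 of them, 67.3%, where a choice unrelated to the score would hold about 30%. Clca3a1 was the highest named gene of these same members, so this overlap is no separate finding. In the library labelled sham the shares were 24.4% by Clec3b and Sfrp4, 24.4% by Car3 and Rbp4 and 52.9% by Clca3a1 and Agtr1a.

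Inflammatory fibroblast genes were lower as well, with 1 higher and 9 lower of the 16 that passed out of 20, and a median log2 ratio of -1.52. With members taken within each depth group the list had 2 higher and 7 lower and a median of -0.49, in the member-rich clusters 1 higher and 6 lower of 15 and -0.51, and in the library labelled sham 2 higher and 4 lower of 14 and -0.14. Ccl19, a chemokine of lymphoid stroma, was the higher gene at 309 and 199 CPM, under the call in 10 of 24 alternatives, and shares 56.2% of its transcript end with other genes. Il33, an alarmin, was at 164 and 113 CPM, within 1.5-fold. C3, the central complement component, was at 156 and 687 CPM, 4.39-fold lower (3.77 to 5.15), and Ccl11, the eosinophil chemokine eotaxin, at 129.7 and 707. In the complement list 2 of 13 genes were higher and 4 lower out of 15 listed: C1qtnf2 was at 372 and 153 CPM, and Cd55, a membrane inhibitor, was at 16.1 and 65.5 but at a log2 ratio of 0.27 in the member-rich clusters.

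The myofibroblast list held more higher than lower genes. Of 19 genes 14 passed, with 8 higher and 4 lower and a median log2 ratio of 0.80. Ccn2, which encodes connective tissue growth factor, was at 1639 and 374 CPM, 4.38-fold higher (4.08 to 4.71). Cald1, which encodes caldesmon, was at 1485 and 471 CPM, 3.15-fold higher (2.94 to 3.38), Myl9, a myosin light chain gene, at 1240.3 and 604, and Tagln at 757 and 406 (a log2 ratio of 0.46 in cells with Xist UMIs only). Postn and Tnc were at 47.4 and 156 and at 17.9 and 66.9 CPM. Acta2, which encodes smooth muscle actin, was at 619.7 and 568 CPM. Of the members 18.8%, and of the other kept cells 14.0%, had UMIs of 3 or more of 7 mural genes. Without these cells the log2 ratio of Acta2 went from 0.12 to 1.52. Cluster 8 of the clustering described at the end, with Ren1, Rgs5 and Acta2 among its leading genes, held 15 such cells among 19 and 0 members. What moved the ratio was not tested. Cnn1 was at 6.26 and 32.7 CPM, with 85.0% of the higher sum in 5 cells. Of the 14 genes that passed in the library labelled sham, 0 were higher or lower, and Ccn2 was at 164 against 177 CPM.

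The TGF-beta list, which shares Ccn2 with the last one, had 6 higher and 3 lower of 17 that passed out of 21, with a median log2 ratio of -0.15. Tgfb2, a ligand gene, was at 44.7 and 13.9 CPM, Bmp4 at 377 and 152, and Id1, a target of BMP signals, at 30.4 and 109. Of 23 WNT modulators 10 passed, with 1 higher and 5 lower: Frzb, a secreted inhibitor gene, was at 135 and 43.7 CPM, 3.09-fold higher (2.45 to 3.89), Dkk3 at 214 and 147, and Rspo1, an activator gene, at 6.26 and 31.9. Within the member-rich clusters the log2 ratios of Frzb and Id1 were 0.20 and -0.49, and with members taken within each depth group that of Rspo1 was -0.26. Retinoid and lipid genes had 3 higher and 6 lower of 14 that passed out of 18. Fabp5 was at 132 and 51.1 CPM and Aldh1a2, a retinoic acid synthesis enzyme gene, at 114 and 44.3, while Car3 was at 66.2 and 741. The log2 ratios of Aldh1a2 and Car3 were 0.45 and 0.56 in the member-rich clusters, and that of Fabp5 was 0.54 after thinning.

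Immediate early genes, which dissociation of tissue can induce, were nearly all lower. Of 25 genes 22 passed, and 0 were higher and 20 lower, with a median log2 ratio of -1.32. In the member-rich clusters 0 of 21 were higher and 9 lower, with a median of -0.46. Together they made up 0.851% of the members' UMIs and 2.27% of those of the other kept cells, and 1.42% and 1.71% in the library labelled sham, where 0 of 23 were higher and 1 lower. Fos was at 1314 and 4057 CPM, Jun at 901 and 2920 and Myc at 15.2 and 101, while Hspa1b, at 39.6 and 47.9, and Ier3, at 139.5 and 195, stayed within 1.5-fold. Klf4, Socs3 and Il6 were described above beside other lists, and their relation to this group was not tested.

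Single genes of the hypoxia, interferon and transcription factor lists follow. Epas1, which encodes the oxygen-regulated factor HIF-2 alpha, was at 343 and 96.2 CPM, 3.57-fold higher (3.07 to 4.15), and at 153 against 69.5 in the library labelled sham, while Hif1a was at 44.7 and 34.5. In that list 12 of 17 genes passed, with 1 higher and 3 lower, and Adm, which encodes adrenomedullin, was at 225 and 467 CPM. Of 18 interferon genes 16 passed, with 1 higher and 3 lower and a median log2 ratio of -0.03: Oasl2 was at 52.8 and 25.5 CPM, Bst2 at 252 and 184, Isg15 at 26.8 and 55.6, and Irf1 at 74.2 and 205. Of 24 stromal transcription factor genes 20 passed, with 6 higher and 7 lower. Nr2f2, which encodes COUP-TFII, was at 537 and 244 CPM, 2.20-fold higher (1.98 to 2.45), Tcf21 at 531 and 321 and Hoxd11 at 49.2 and 23.0, while Osr1 and Tbx18 were at 25 and 95.3 and at 3.58 and 29.6. In the member-rich clusters 1 of 17 was higher and 3 lower, and the log2 ratios of Nr2f2, Tcf21 and Osr1 were 0.22, -0.07 and -0.07. Adm, Irf1 and Oasl2 were at log2 ratios of 0.33, 0.16 and 0.55 there, and Isg15, Hoxd11 and Tbx18 also lost the call in 4, 2 and 1 of 24 alternatives.

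Both sort receptors were present. Pdgfrb was at 316 and 118 CPM, 2.68-fold higher in the members (2.31 to 3.09), and detected in 72.3% and 43.3% of cells. Pdgfra was at 277 and 214 CPM and detected in 68.3% and 64.3%, within 1.5-fold. Both genes were among those used to keep cells. The log2 ratio of Pdgfrb went from 1.38 to 0.31 in the member-rich clusters. Among cells labelled sham Pdgfrb was at 356 against 268 CPM.

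**Figure D4:**
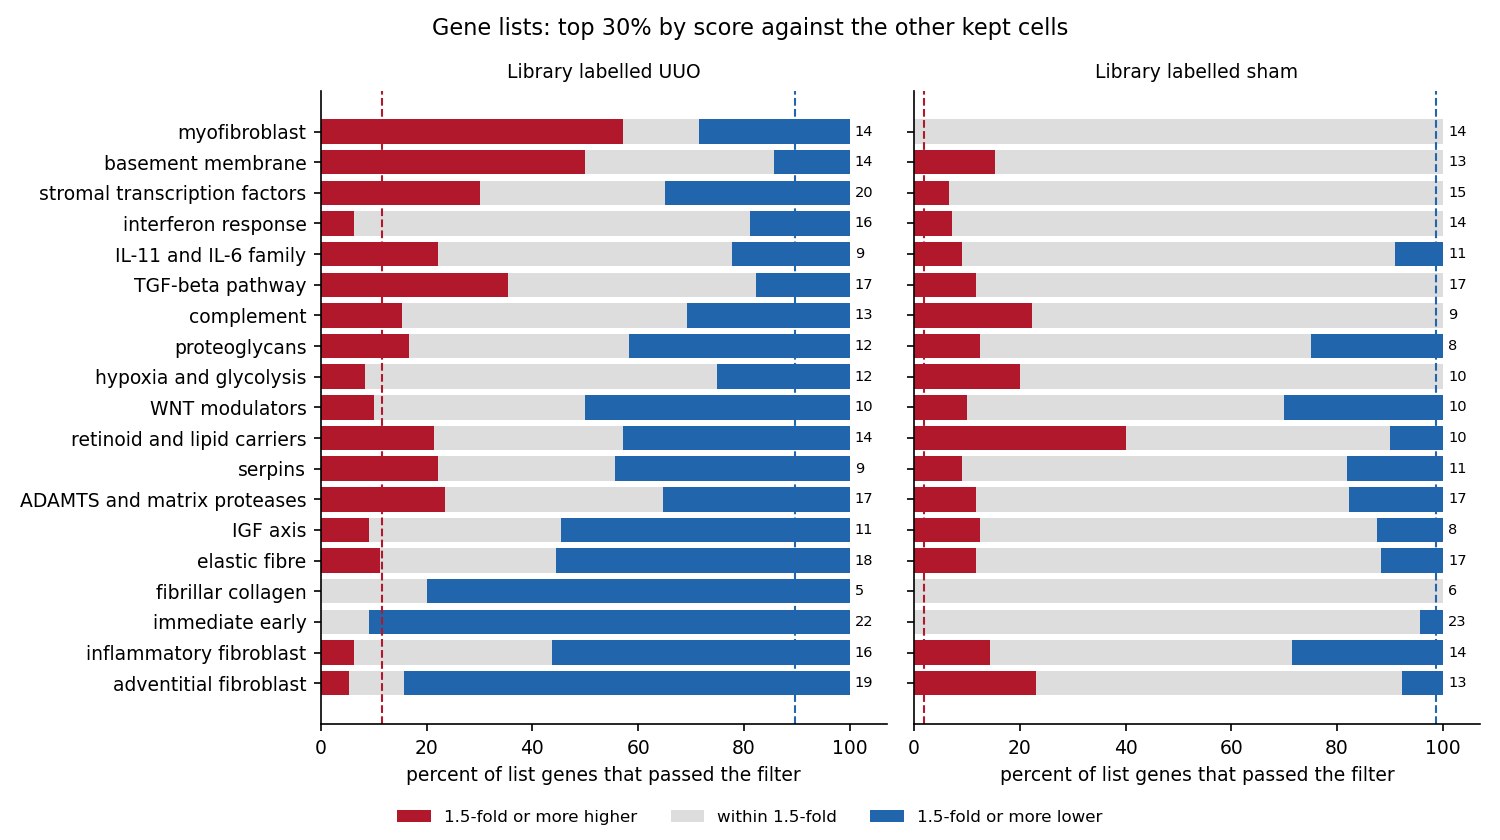
Percent of the genes of each list that passed the filter (horizontal axis; number at right) and were 1.5-fold or more higher (red), within 1.5-fold (grey) or lower (blue) in the top 30% by score, in the libraries labelled UUO and sham. Dashed lines give the shares over all genes tested, 11.5% higher and 10.4% lower in the library labelled UUO; 16 of 19 adventitial and 20 of 22 immediate early genes were lower there.

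Clustered without the 5 score genes, the kept cells of the library labelled UUO fell into 15 clusters, and 57.9% of the members sat in a single one. Cluster 6 held 130 cells, of which 117, 90% (95% exact binomial interval 83.5 to 94.6), were members, and its first leading genes were Clca3a1, Adap2os, Ccl6, Cdc42ep3 and Slc40a1. Serpina1b, whose UMIs are uncertain against those of the score gene Serpina1d, was also among its 10 leading genes. Near copies of score genes were not left out by this rule, so the clusters are not independent of the score. Cluster 9, led by Gm2564, Ccl19-ps1 and Mgp, held 34 members among 70 cells, 48.6% (36.4 to 60.8). Cluster 7, led by Spp1 and Cpm, held 26 among 50 cells, 52.0% (37.4 to 66.3). Cluster 15, led by globin genes, held 13 among 42, and 5 more clusters held 12 in all. The other 6 clusters held 0 members; the largest of them, cluster 11, led by Car3 and Foxf1, had 42 cells, where a count of 0 allows up to 8.41% by the same interval. The kept cells were not all fibroblasts: clusters 2, 8, 10 and 15 had 2 or more markers of proximal tubule, mural, endothelial or erythroid cells among their 10 leading genes, with 101 cells and 14 members. This count rests on the marker lists and can miss other cells. Cluster 14, with 4 cells and 0 members, was led by Ccl21a, Gm13304, Gm21541, Mmrn1 and Cldn5. Cluster 13, with 15 cells and 0 members, had Pax8 and Wt1 among its leading genes. Both stayed among the other kept cells in every comparison that left out clusters by these markers.

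**Figure D5:**
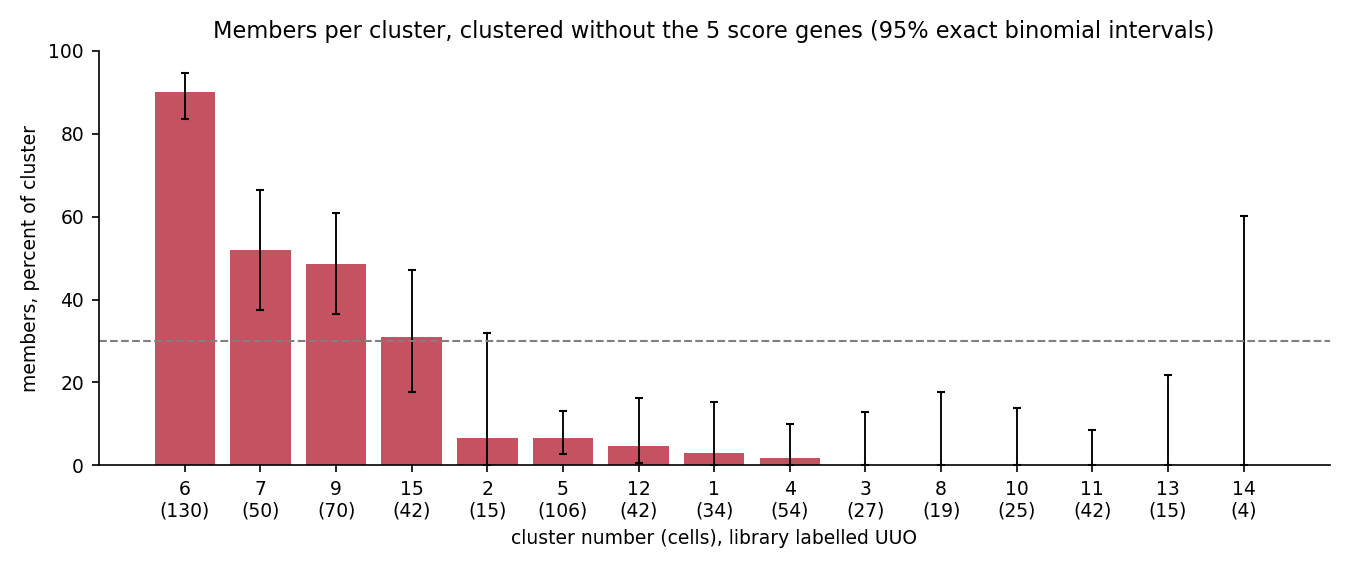
Percent of each cluster that were members (vertical axis, bars with 95% exact binomial intervals) by cluster number with its number of cells in brackets, in the library labelled UUO, clustered without the 5 score genes; the dashed line is the share over all kept cells. Cluster 6 stands at 90%, clusters 7 and 9 near 50%, and 6 clusters at 0.

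The members of these clusters had different levels. Of the 108 members with a score of 2.6 or more, a value chosen after the distribution was seen, 82 were in cluster 6. Members of cluster 6 carried Clca3a1 at 359 CPM, those of cluster 7 at 103 and those of cluster 9 at 27.3. Nt5e stood at 137, 60.2 and 8.40 CPM in that order, and Serpina1d at 649, 309.9 and 109. Cluster 9 members had more Il11ra1, at 2918 CPM against 1253 in cluster 6, and more Dcn, at 12561 against 2908. Acta2 was at 418, 489 and 1403 CPM, and 21 of the 70 cells of cluster 9 had UMIs of 3 or more mural genes. The members of all 3 clusters carried Igfbp3 at 7983, 4618 and 6318 CPM and Fbln5 at 5937, 4106 and 3361, and these levels describe clusters made from the same cells: Clca3a1 and Nt5e are among the genes that led cluster 6, and Serpina1d is a score gene.

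In the 4 member-rich clusters, 190 members against 102 other cells, 805 of 6400 genes were higher, 12.6%, and 340 lower, 5.31%. All 15 highest genes were 1.5-fold or more higher there, and their log2 ratios ran between 1.18 and 3.94 over the 24 alternatives, this one included. Of these 190 members 117 were in cluster 6, which several of the same genes led, so this is no separate support for them. Of the adventitial genes 10 of 16 were lower there and 3 higher, and of the immediate early genes 9 of 21 were lower. Without the 4 clusters led by markers of other cells, 188 members stood against 386 other cells, with 787 genes higher and 609 lower, 16 of 19 adventitial genes lower and 19 of 22 immediate early genes lower. Both alternatives were added after the data were seen.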

How the data were processed

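Mouse kidney cells in 2 libraries, 1 per group, were captured on the 10x Chromium system with 3′ version 2 chemistry, per the labels. The authors deposited tables of expected counts of UMIs per cell and gene, made with Salmon 0.13.1 (alevin) on mm10, per the submitters' processing notes, and 91.2% (labelled UUO) and 92.3% (labelled sham) of the values above 0 were whole. Alevin shares UMIs that match several genes. The tables hold 53698 gene entries and sum to 6023072 and 85359332 UMIs. The libraries share 16 barcodes, 7 of them among kept cells.

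Counts were summed over members and over other kept cells and divided by the summed UMIs (CPM). A gene with 20 CPM or more over the kept cells was called at 1.5-fold or more after adding 5 CPM. With 1 library per group there is no test, and 95% intervals (exact conditional binomial for ratios, Clopper-Pearson for shares) cover counting error only. Genes were named as the 15 with the highest and 15 with the lowest log2 ratio among genes with 50 CPM, 50 counts and UMIs in 10% of cells of the higher group (without mitochondrial, ribosomal, globin, sex-linked and other cell types' marker genes), the 2 highest and 2 lowest members of each list that passed the filter, and a set always named; other genes in the text were chosen after their values were seen. Some genes that this rule would name are not reported here. The members and the 19 gene lists were chosen with earlier results of these data known. All 373 distinct list symbols were found, Ccn2 as Ctgf. Clusters came from scanpy 1.11.5 (2000 variable genes, 30 components, 15 neighbours, resolution 1) without the score genes. Possible doublets were kept, and their removal was an alternative. The calculation was tested on simulated data, and 24 alternatives were run.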

Additional observations from a re-analysis of the deposited data

Results flagged for a closer look

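Of 5234 genes that passed in both libraries, 14 were called in opposite directions, and 7 of them are in the gene lists or among the named genes. The log2 ratio of Sfrp4, top 30% over other kept cells, was -1.86 in the library labelled UUO and 0.68 in the library labelled sham, though in cells with Xist UMIs only the first was -0.49. For C3 the log2 ratios were -2.10 and 0.87, and for Adm -1.04 and 1.02. The elastic fibre genes Eln and Efemp1 were at -1.08 and 0.66 and at -1.73 and 0.61. Ly6c1 was at -1.83 and 0.74, and Fabp4 at -1.29 and 1.40. Within the library labelled UUO, the log2 ratios of Adm, Fabp4 and Ly6c1 were 0.33, 0.71 and -0.55 in the member-rich clusters. Their call as lower was lost there, while C3 kept it at -0.98. Without the clusters led by markers of other cells, Fabp4 was at -0.20. Fabp4 was a leading gene of cluster 10, which also had endothelial markers among its leading genes and held 0 members. What moved these ratios was not tested. The differences between the libraries were not tested either, since each group is 1 library.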

How the results depend on the processing

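The 15 highest genes kept a 1.5-fold or larger difference in the same direction in 360 of 360 values over 24 alternatives. The 15 lowest did so in 350 of 360, with 3 reversed. The reversed values were those of Ccl21a and its near copies Gm13304 and Gm21541. Of 2328 values of named genes 1876 stayed inside the 95% counting interval of the reported ratio, 439 moved outside it, and 13 of genes that differed by 1.5-fold or more changed sign. All these counts include the alternatives without the filter and with a filter of 50 CPM. Those change only which genes are tested and could not move a ratio, so the counts overstate stability. The 15 highest and 15 lowest were also picked for their extreme ratios in these same cells, and most alternatives reused most of the members. Their counts are therefore no independent support. The count of genes higher in members (722) was 1768 without a filter on low genes, 333 with a filter of 50 CPM and 459 with 20 CPM added. The count of genes lower (656) was 1650 without the filter, 340 with 50 CPM, 1000 in cells with Y-linked UMIs only and 340 in the clusters with 30% or more members. Of the 19 list medians 3 lay above that of all genes, against 6 after thinning, 1 without the filter and 6 in those clusters. Among the 13 log2 ratios of named genes that changed sign, those clusters gave Adm at 0.33, Bgn at -0.20 and Car3 at 0.56. The same clusters gave Ccl21a at 0.26, Cd55 at 0.27, Cnn1 at 0.68, Gm13304 at 0.45, Gm21541 at 0.45 and Irf1 at 0.16. Cnn1 was at 0.06 and Isg15 at 0.75 in cells with Xist UMIs only, and Cnn1 at 0.08 without cells of 3 or more mural genes and at 0.04 without clusters led by markers of other cells. The causes were not tested. No paired analysis was possible because each group is 1 library. Low genes are limited by the members' 1118312 UMIs.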
